A study of Mus musculus with 9 samples.

Results

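The genes described here encode proteins that coat the lipid droplets of liver cells or that control lipolysis, the release of fatty acids from the triglyceride stored in those droplets. They were chosen by symbol, as Plin2, Plin4, Plin5, Cidea, Cideb, Cidec, G0s2, Pnpla2 and Hilpda, with earlier results of these data known. Of these 9 genes, 8 were analysed among the 19944 genes of the deposited table, and Cidea was not analysed here. Liver RNA came from male FVB mice aged 60 days on normal chow, in 3 groups of 3 libraries. The KO mice are labelled as SND1 knockouts, the KI mice as carriers of SND1 with a mutated Tudor domain, and the WT mice as wild type. The labels give neither the alleles nor the mutated residue. They also do not say whether Snd1 was lost in the whole animal or in hepatocytes alone. The study was set up to learn how the Tudor domain, a module that binds methylated arginine, contributes to transcription in liver.

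A lipid droplet is a core of triglyceride and cholesteryl ester under a single layer of phospholipid. Perilipins (the Plin genes) coat that layer and restrict access of lipases, and CIDE proteins (the Cide genes) sit at contacts between droplets, where they promote droplet growth. Adipose triglyceride lipase, the product of Pnpla2, takes the first fatty acid off triglyceride, with the protein ABHD5 as its activator and G0S2 and HILPDA as its inhibitors. In a lean liver on chow, Plin2, Plin5 and Cideb are the well-known droplet genes of hepatocytes, whereas Plin4 and Cidec are known mainly from fat tissue and, for Cidec, from fatty liver.

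Values are the authors' normalized counts per gene, which are read counts divided by a size factor of each library. The recovered totals ran from 59678412 to 66384374 reads per library. Snd1 itself had 227, 414 and 359 normalized counts in the KO libraries, 5373, 7941 and 5595 in the KI libraries and 6951, 8446 and 6512 in the WT libraries, so KO was separate from both other groups and KI overlapped WT. Libraries are named by group and by the number in the sample title, as in KO_1. In KI_3, KI_1 and WT_3, transcripts of 14 exocrine pancreas genes took 5.91%, 0.515% and 1.24% of the normalized counts, against at most 0.00525% in the other 6 libraries. Fold changes of the 8 genes are given with and without these 3 libraries. Leaving them out kept 1 KI library (KI_2) and 2 WT libraries. Transcripts of 18 acute phase genes, which hepatocytes secrete in inflammation, took 7.41%, 19.3% and 20.2% in KO_1, KO_2 and KO_3, 1.31% to 1.95% in KI and 1.66% to 1.79% in WT. The labels name hepatocytes but describe no isolation of cells, and albumin (Alb, a hepatocyte marker named beyond the rule for named genes) had between 1767535 and 3890486 normalized counts per library. In such bulk tissue, fewer cells of a type and less RNA per cell cannot be told apart.

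Plin2 was the only 1 of the 8 genes for which all KO libraries lay above all WT libraries. Its normalized count was 16739, 18469 and 24542 in the KO libraries, 8534, 13873 and 10215 in the KI libraries and 14609, 10081 and 13136 in the WT libraries. Every KO library also lay above every KI library, and KI overlapped WT. Hilpda, in contrast, was higher in all KI libraries than in any WT library, and KO overlapped both. Pnpla2, the lipase itself, and Cideb showed overlapping values in every pair of groups. Cidec and Plin4 were higher in KO_2 and KO_3 than in every WT library, but not in KO_1.

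**Figure D1:**
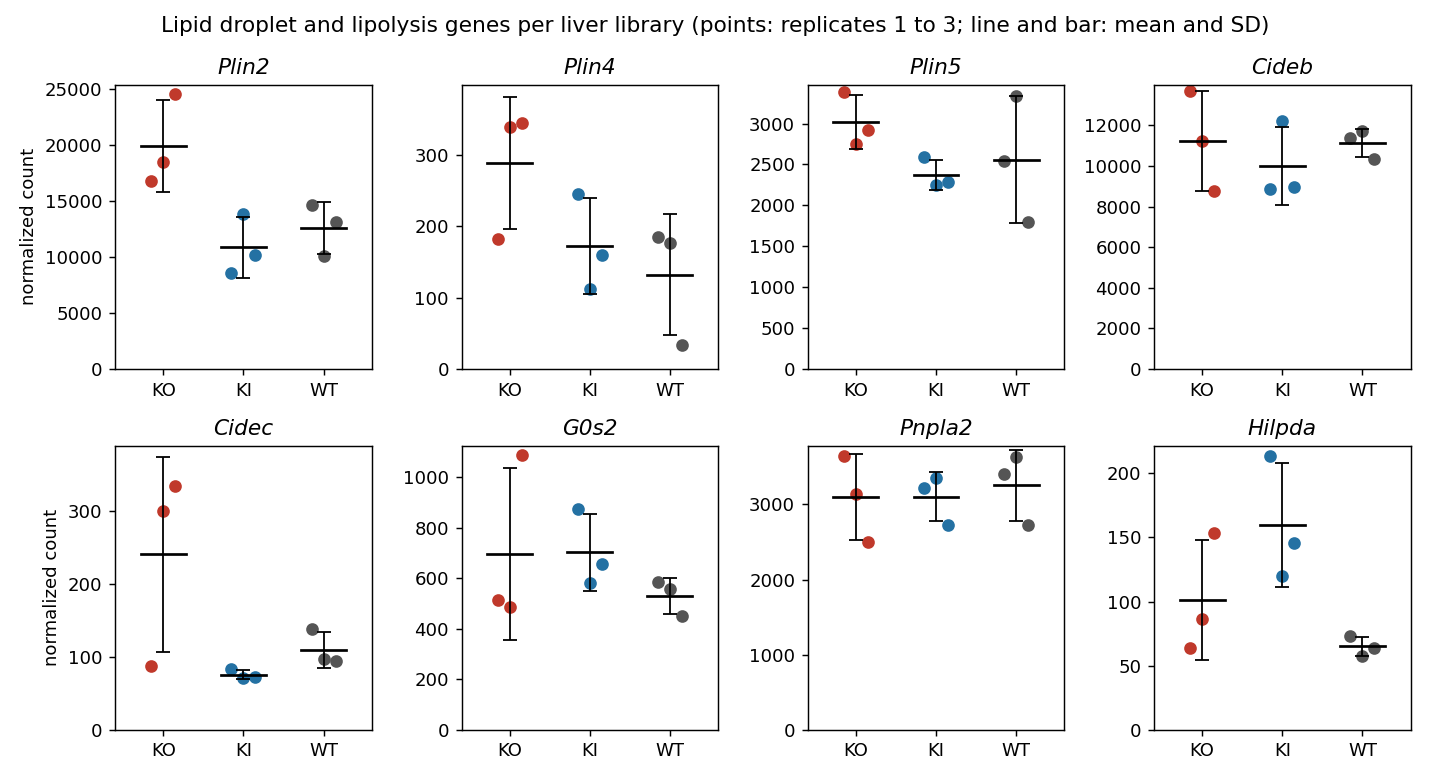
Normalized counts of the 8 genes in each library, with 1 panel per gene, 3 points per group (replicates 1 to 3), a line at the group mean and a bar for the SD, and an axis that starts at 0. Plin2 is above all WT and KI points in every KO library, and Hilpda is above all WT points in every KI library.

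For KO against WT, a gene was called changed at an adjusted p under 0.05 in limma, with Benjamini-Hochberg adjustment over all 15238 genes with a mean of at least 10 normalized counts. None of the 8 genes was called, where 8.83% of all genes tested were called (4.63% higher and 4.2% lower). At an unadjusted p under 0.05 there were 2 of 8, Plin2 and Plin4, beside 25% of all genes. Of the 8, edgeR called 0, beside 7.94% of all genes, and DESeq2 called 1, Plin2, beside 15% of all genes. The groups did not overlap for 1 of 8, Plin2, which was higher, beside 29.1% of all genes (15% higher and 14.2% lower). These shares are not above the background. Log2 fold changes were positive for 6 of the 8 genes, with a median of 0.42, against a median of 8e-04 over all genes tested.

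KI against WT gave no call among the 8 genes either, where 0.0263% of all genes were called (0.00656% higher and 0.0197% lower). At an unadjusted p under 0.05 there was 1 of 8, Hilpda, beside 11.6% of all genes. Of the 8, edgeR called 0, beside 0.00656% of all genes, and DESeq2 called 1, Hilpda, beside 2.53% of all genes. The groups did not overlap for 2 of 8, Hilpda (higher) and Cidec (lower), beside 19.6% of all genes (9.47% higher and 10.2% lower). The median log2 fold change was -0.06, against 0.0045 over all genes.

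KI against KO gave 1 call of 8, Plin2, which was lower in KI, where 8.45% of all genes were called (3.6% higher and 4.85% lower). Over all genes these were 548 higher and 739 lower, and scaling to the library total gave 363 higher and 909 lower. At an unadjusted p under 0.05 there were 2 of 8, Plin2 and Cidec, beside 24.9% of all genes. Of the 8, edgeR called 1, Cidec, beside 7.88% of all genes, and DESeq2 called 2, Plin2 and Cidec, beside 15%. The groups did not overlap for 3 of 8, Plin2, Plin5 and Cidec, which were all lower in KI, beside 26.4% of all genes (12.3% higher and 14.1% lower). KI against WT and KO against WT share the WT libraries, and KI against KO shares its libraries with both. The spread between these 9 samples is all that the p-values measure, since no source used here says whether litters or cages were shared.

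**Figure D2:**
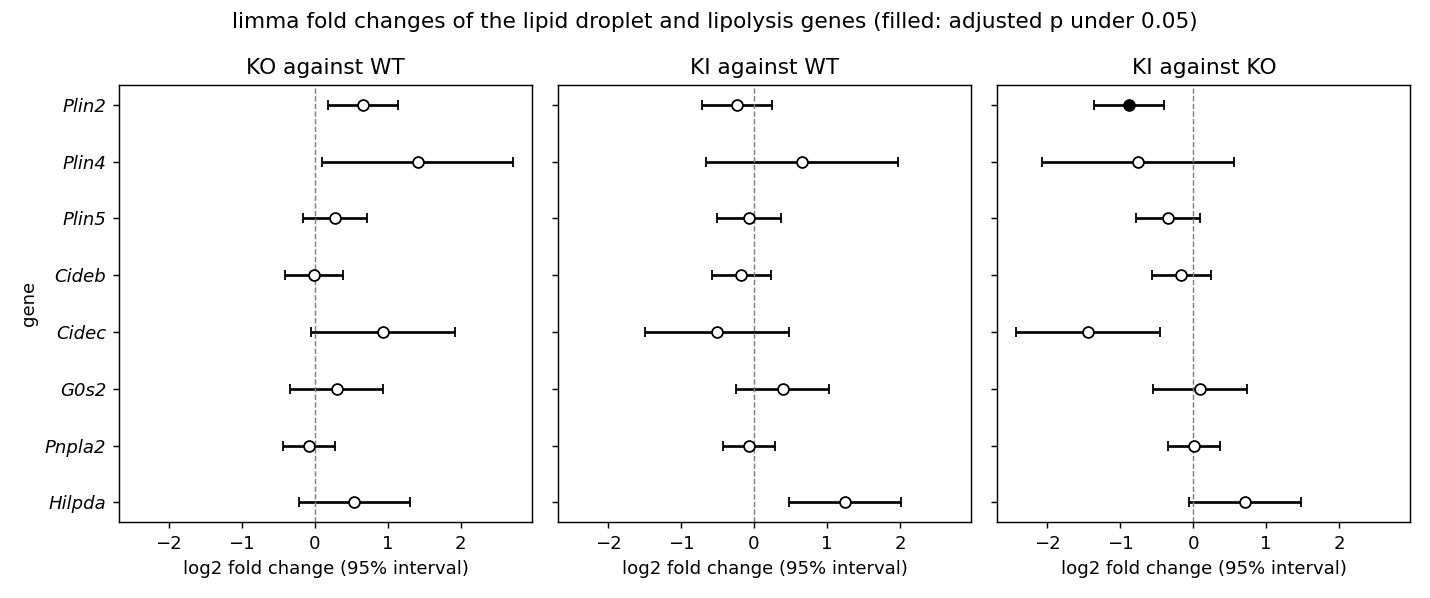
Log2 fold changes from limma (horizontal axis) of the 8 genes (vertical axis) in the 3 comparisons, with bars for the 95% interval and a filled point where the adjusted p was under 0.05. The filled point is Plin2 in KI against KO, at -0.88.

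Per kilobase of exon, the droplet and lipolysis genes spanned a wide range in WT liver. Counts were divided by the union exon length of each gene in GENCODE release M21. Cideb was highest, with 7488 ± 470 normalized counts per kilobase in WT libraries (SD, n = 3), and Plin2 followed with 3590 ± 658. Plin5 had 1225 ± 372 and Pnpla2 had 1077 ± 155, so these neighbours in the order did not differ beyond their spread. G0s2 came next with 609 ± 82.1 per kilobase. Cidec, with 59.0 ± 13.4, and Hilpda, with 58.9 ± 6.88, could not be separated either, and Plin4 was lowest with 22.8 ± 14.7. The KO libraries had Cideb and Plin2 as the highest pair, at means of 7547 ± 1663 and 5671 ± 1167 per kilobase, and the KI libraries did so at 6715 ± 1283 and 3096 ± 777. Cideb and Plin2 could not be ordered in KO, since in KO_3 Plin2 stood at 6988 and Cideb at 5886 per kilobase. Plin4 had the lowest mean in all 3 groups, with 31.6 to 59.7 per kilobase in KO, 19.4 to 42.6 in KI and 5.89 to 32.0 in WT, and it overlapped Cidec in KO and in KI. Hilpda averaged 91.8 ± 42.5 per kilobase in KO, 145 ± 44.0 in KI and 58.9 ± 6.88 in WT, while Cidec averaged 129 ± 72.0 in KO, 40.7 ± 3.33 in KI and 59.0 ± 13.4 in WT. The values of these 2 genes overlapped in KO and in WT and were apart in KI.

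Plin2, the perilipin that covers most droplets in hepatocytes and whose protein is known to be stabilised by lipid, averaged 19917 ± 4098 normalized counts in KO, 10874 ± 2730 in KI and 12609 ± 2310 in WT (SD, n = 3 each). It lies on the reverse strand of GRCm38 at chr4:86648386-86670060. In KO against WT it was 1.58-fold higher, a log2 fold change of 0.66 ± 0.22 (SE) with a 95% interval of 0.18 to 1.14 and a limma adjusted p of 0.0896, which does not pass. Without the 3 libraries with pancreatic transcripts it was 0.70 (adjusted p = 0.24). Over 20 alternative settings the log2 fold change ran from 0.50 to 0.77 and the adjusted p from 0.0322 to 0.256, with a call in DESeq2 and without KO_1 (0.77, adjusted p = 0.0454). In KI against KO Plin2 fell to 0.542 of the KO level (95% interval 0.389 to 0.756), or -0.88 ± 0.22 on the log2 scale (SE, limma adjusted p = 0.0345). The call held in 10 of the 20 alternatives, and the adjusted p ran from 0.00234 to 0.587. It was lost without KO_2 (adjusted p = 0.0957), KO_3 (0.0864), KI_1 (0.128), KI_3 (0.108), WT_1 (0.0518) or WT_3 (0.0521). The call was also lost in edgeR (adjusted p = 0.0524), in a fit of only these 2 groups (0.0721) and with pancreatic transcripts as a covariate (0.294). The KI libraries with the lowest Plin2 were KI_1 and KI_3, which carry pancreatic transcripts. Without the 3 libraries with such transcripts the log2 fold change of KI against KO was -0.50 with an adjusted p of 0.587, which leaves KI_2 alone to stand for KI. Against WT, KI differed by -0.23 ± 0.22 on the log2 scale (limma adjusted p = 0.73), a value that turned to 0.19 without those 3 libraries.

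The promoter windows of Plin2 and of its relative Plin5 are printed because these 2 perilipins are the well-expressed ones and because both windows hold AGGTCA, the 6-letter element that nuclear receptors such as the PPARs read. The sequences are from RefSeq on GRCm38.p6, from 250 bases before the annotated start to 10 bases after it. Capitals mark AGGTCA, which reads TGACCT where it lies on the other strand. They also mark GCGTG, a core read by hypoxia-inducible factors that reads CACGC on the other strand, and the E-box CACGTG.
Plin2, chr4:86670050-86670309, reverse strand: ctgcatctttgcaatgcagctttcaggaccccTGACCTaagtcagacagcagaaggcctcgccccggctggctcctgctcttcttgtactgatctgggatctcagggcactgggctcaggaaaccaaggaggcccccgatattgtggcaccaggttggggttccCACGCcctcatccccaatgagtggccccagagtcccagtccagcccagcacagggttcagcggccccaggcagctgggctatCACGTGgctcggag
Plin5, chr17:56117539-56117798, reverse strand: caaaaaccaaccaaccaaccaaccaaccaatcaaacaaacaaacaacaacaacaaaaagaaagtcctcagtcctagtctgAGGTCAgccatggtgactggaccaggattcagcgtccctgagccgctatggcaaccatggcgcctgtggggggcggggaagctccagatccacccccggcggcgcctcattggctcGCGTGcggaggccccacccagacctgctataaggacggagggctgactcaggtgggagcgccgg
The E-box of Plin2 spans positions -4 to 2 around the start and contains ACGTG on both strands. Windows of 300 bases, with 50 bases after the start, were searched on both strands for 5 motifs in all genes. Of 11 windows for the 8 genes, 3 held AGGTCA, against 16.3% of 32851 windows over all genes, and those 3 belonged to Plin2 and Plin5. The same element repeated after 1 base (the DR1 motif) was in 0 of the 11 and in 0.0396% of all windows. CACGTG was in 1 of the 11, that of Plin2, against 7.15% of all. GCGTG was in 9 of the 11 against 32.4% of all, and those 9 belonged to 6 of the 8 genes, so they are not separate promoters. A match of letters is a description of the window and not a site of binding.

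Plin5, a perilipin of tissues that burn fatty acids, which binds both the lipase and its activator, had 3391, 2746 and 2916 normalized counts in the KO libraries, 2587, 2245 and 2288 in the KI libraries and 2541, 3341 and 1790 in the WT libraries. WT spread over the whole range of KI and most of that of KO, while every KO library exceeded every KI library. The log2 fold change was 0.28 ± 0.20 for KO against WT (SE, limma adjusted p = 0.423), -0.06 for KI against WT (adjusted p = 0.933) and -0.34 ± 0.20 for KI against KO (adjusted p = 0.312). Without the 3 libraries with pancreatic transcripts these values were 0.045, -0.38 and -0.42. For KO against WT, leaving out WT_3 alone also gave 0.045 and leaving out WT_2 gave 0.49. For KI against WT, the value was -0.30 without WT_3 and 0.15 without WT_2. WT_2 was the highest and WT_3 the lowest WT library. Plin5 and Plin4 are neighbours on the reverse strand, at chr17:56111601-56117596 and chr17:56100591-56109803.

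Plin4, a perilipin known from fat and muscle, had 183, 339 and 345 normalized counts in the KO libraries, 246, 112 and 160 in the KI libraries and 185, 176 and 34.0 in the WT libraries. KO_2 and KO_3 were above every other library, KO_1 lay within WT, and WT_3 was far below the rest. The mean was 289 ± 92.1 in KO, 173 ± 67.6 in KI and 132 ± 84.8 in WT (SD, n = 3 each). KO against WT gave a log2 fold change of 1.41 ± 0.59 (SE, 95% interval 0.09 to 2.72) with a limma adjusted p of 0.171. Over the alternatives this value ran from 0.62 to 1.82, and none of them called it. The 0.62 was reached without WT_3 alone (adjusted p = 0.397) and without all 3 libraries with pancreatic transcripts, of which WT_3 is 1. The log2 fold change was 0.65 ± 0.59 for KI against WT (SE, limma adjusted p = 0.716) and -0.75 for KI against KO (adjusted p = 0.471), and without the 3 libraries these were -0.68 and -1.30. Without WT_3 alone, KI against WT was -0.14. Reads of Plin4 and of Hdgfl2, which overlaps it on the opposite strand, cannot be told apart if the counting ignored strand. The defining fat cell markers Adipoq and Plin1 were at or near 0, with 0 to 4.57 and 0 to 4.82 normalized counts per library. The summed count of the 4 fat cell markers analysed ran from 751 to 893 in KO, from 765 to 984 in KI and from 941 to 1100 in WT, most of it from Lipe, a lipase that liver also expresses. Of the 2 fat cell markers that could be tested, Adrb3, a receptor for catecholamines, had 103, 97.2 and 165 normalized counts in the KO libraries against 34.5, 55.9 and 59.1 in the WT libraries, with no overlap. Its log2 fold change of 1.27 did not pass (limma adjusted p = 0.0543), nor did that of Lipe, at -0.46 (adjusted p = 0.0805), while DESeq2 called both. Lipe and Adrb3 are named after their values were seen, and the part of fat cells in the values of Plin4 was not tested.

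Cideb, which hepatocytes use in loading triglyceride onto very low density lipoprotein, showed no difference between groups beyond their spread. Its normalized count was 13707, 11225 and 8758 in the KO libraries, 8842, 12194 and 8937 in the KI libraries and 11364, 11704 and 10360 in the WT libraries. All 3 groups overlapped. The log2 fold change was -0.01 ± 0.18 for KO against WT (SE, 95% interval -0.41 to 0.39, limma adjusted p = 0.979), -0.17 for KI against WT (adjusted p = 0.76) and -0.16 for KI against KO (adjusted p = 0.631). Leaving out the 3 libraries with pancreatic transcripts gave -0.06, 0.08 and 0.14. Cideb lies at chr14:55754050-55758458 on the reverse strand and overlaps Nop9 on the other.

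Cidec, the CIDE protein of large droplets, split the KO libraries. It had 87.2, 299.8 and 334 normalized counts in KO_1, KO_2 and KO_3, against 82.7, 71.2 and 72.9 in the KI libraries and 138, 96.3 and 94.1 in the WT libraries. KO_2 and KO_3 stood above every other library, KO_1 was below every WT library, and all KI libraries were below all WT and all KO libraries. KO_1 was also the KO library with the lowest share of acute phase transcripts, and the part of that difference in Cidec was not tested. KO against WT gave a log2 fold change of 0.93 ± 0.44 (SE, 95% interval -0.06 to 1.92, limma adjusted p = 0.229), and without KO_1 it was 1.54 with an adjusted p of 0.00311. KI against KO gave -1.44 ± 0.44 (SE, limma adjusted p = 0.0751), and without KO_1 it was -2.05 with an adjusted p of 0.000696. On recovered reads the difference of KI from KO passed in edgeR (adjusted p = 0.0471) and in DESeq2 (adjusted p = 0.00223). With the fit without KO_1, these were the only 3 of 20 alternatives that called Cidec in KI against KO. For KO against WT only 1 of 20 called it, the fit without KO_1, which called 16.5% of all genes. Without KO_2 that value was 0.66 (limma adjusted p = 0.532). KI against WT gave -0.51 ± 0.44 (SE, limma adjusted p = 0.706). Without the 3 libraries with pancreatic transcripts the values were 0.83 for KO against WT, -0.69 for KI against WT and -1.52 for KI against KO. Pparg, the nuclear receptor that drives Cidec in fat cells and in fatty liver, averaged 97.8 ± 20.1 normalized counts in KO, 97.1 ± 40.9 in KI and 165 ± 25.7 in WT (SD, n = 3 each). It was not called in KO against WT (limma adjusted p = 0.159) and is named after its values were seen.

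**Figure D3:**
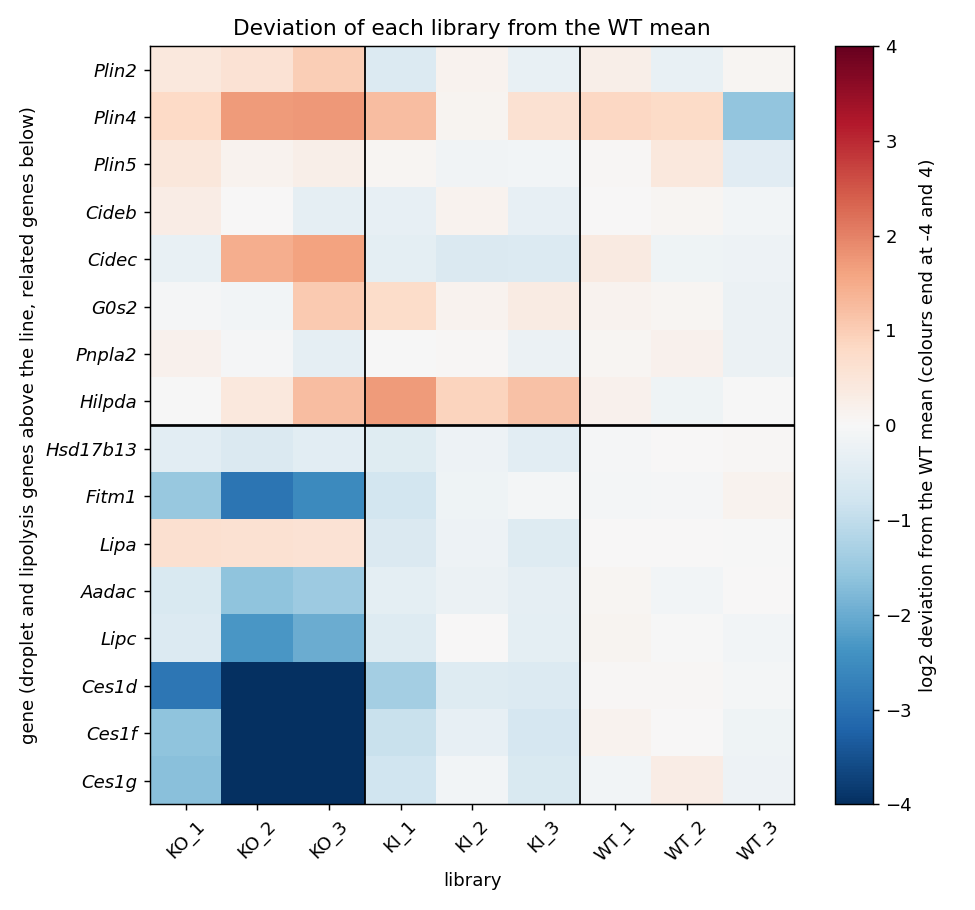
Deviation of each library (columns) from the WT mean on the log2(normalized count + 1) scale for the 8 droplet and lipolysis genes above the line and, below it, the 8 droplet coat and hydrolysis genes called in KO against WT. KO_2 and KO_3 share the strongest colours for Plin4, Cidec and the carboxylesterases, and KO_1 is nearer to WT in these genes.

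Pnpla2, the lipase that starts lipolysis, was the steadiest gene of the group, with a range of 0.54 log2 units over the 9 libraries. It had 3642, 3139 and 2500 normalized counts in the KO libraries, 3222, 3348 and 2732 in the KI libraries and 3402, 3629 and 2728 in the WT libraries. All groups overlapped. The log2 fold change was -0.08 for KO against WT (95% interval -0.44 to 0.28, limma adjusted p = 0.814), -0.06 for KI against WT (-0.42 to 0.29, adjusted p = 0.917) and 0.01 for KI against KO (-0.34 to 0.37, adjusted p = 0.966). The last of these turned to -0.09 with scaling to the library total. Leaving out the 3 libraries with pancreatic transcripts gave -0.20 for KO against WT, -0.07 for KI against WT and 0.13 for KI against KO. Changes within these intervals could not be told from none. Pnpla2 lies at chr7:141455198-141460743 on the forward strand.

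Its inhibitor G0s2, which binds the lipase directly, had 515, 485 and 1089 normalized counts in the KO libraries, 874, 579.9 and 656 in the KI libraries and 585, 557 and 449.6 in the WT libraries. KO_3 was the highest library and the other KO libraries lay within WT, while KI_1 and KI_3, the KI libraries with pancreatic transcripts, were above every WT library and KI_2 lay within WT. The log2 fold change was 0.30 ± 0.29 for KO against WT (SE, limma adjusted p = 0.577), 0.39 ± 0.29 for KI against WT (adjusted p = 0.646) and 0.10 for KI against KO (adjusted p = 0.872), the last of which turned to -0.0088 with scaling to the library total. In the 6 libraries free of marked pancreatic transcripts the values were 0.18 for KO against WT, 0.02 for KI against WT and -0.16 for KI against KO. G0s2 lies at chr1:193272161-193273217 on the reverse strand, and Lamb3 overlaps it on the other.

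Hilpda, an inhibitor of the same lipase that is known to be induced by hypoxia and by fatty acids, had the largest difference from WT among the KI values of the 8 genes. Its normalized count was 63.9, 86.1 and 154 in the KO libraries, 214, 119.6 and 146 in the KI libraries and 72.9, 57.8 and 64.1 in the WT libraries. All KI libraries were above all WT libraries, and KO ran from the WT level into the KI range. The mean was 101 ± 46.9 in KO, 159.7 ± 48.5 in KI and 64.9 ± 7.59 in WT (SD, n = 3 each). KI against WT gave a log2 fold change of 1.25 ± 0.34 (SE), a fold of 2.38 with a 95% interval of 1.40 to 4.04, an unadjusted p of 0.00451 and a limma adjusted p of 0.213. It thus does not pass over all genes, among which its p ranked 318. Over the 20 alternatives the log2 fold change ran from 0.87 to 1.43 and the adjusted p from 0.0297, in DESeq2, to 1, without the 3 libraries with pancreatic transcripts. KO against WT gave 0.54 ± 0.34 (limma adjusted p = 0.368) and KI against KO 0.71 ± 0.34 (adjusted p = 0.237). In the other 6 libraries, without those 3, the values were 0.87 for KI against WT, 0.54 for KO against WT and 0.33 for KI against KO.

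Hilpda lies at chr6:29272488-29275446 on the forward strand, 337326 bases from Snd1. Within 1000000 bases of Snd1, 15 other genes were tested. Their log2 fold changes in KI against WT ran from -0.03 to 0.75 with a median of 0.12, all under the 1.25 of Hilpda. In KO against WT they ran from -0.72 to 3.04 with a median of 0.25. There 2 were called higher and 0 lower, beside 4.63% and 4.2% of all genes. Groups did not overlap for 5 higher and 1 lower, beside 15% and 14.2%. For KI against WT this held for 2 higher and 0 lower, beside 9.47% and 10.2%. The part of the distance to Snd1 in these values was not tested. The promoter of Hilpda is known for its hypoxia response, and the 3 cores of 1 of its 2 windows are shown, in stretches of 30 bases from RefSeq on GRCm38.p6, with ACGTG or GCGTG in capitals.
Hilpda, chr6:29272503-29272532, forward strand: caaccgcgagccGCGTGctttccgtgactc
Hilpda, chr6:29272571-29272600, forward strand: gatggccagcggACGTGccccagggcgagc
Hilpda, chr6:29272606-29272635, forward strand: caggttcggtacGCGTGcgcagtctccgag
ACGTG was in 2 of the 11 windows, those of Plin2 and Hilpda, against 19.6% of all windows. Of 14 other hypoxia targets tested, 0 were called in KI against WT, beside 0.0263% of all genes. There were 4 at an unadjusted p under 0.05, beside 11.6% of all genes. In edgeR 0 were called, beside 0.00656%, and in DESeq2 4, beside 2.53%. Their median log2 fold change was 0.01, against 0.0045 over all genes. The groups did not overlap for 2 that were higher and 2 that were lower, beside 9.47% and 10.2% of all genes. Values ran from -0.87 (Pdk1) to 1.65 (Pfkfb3, named after its values were seen). In KO against WT, 2 of the 14 were called and both fell, beside 4.2% lower and 4.63% higher over all genes. They were Pdk1, a kinase that restrains entry of pyruvate into mitochondria (log2 fold change -1.28, limma adjusted p = 0.00169), and Vegfa, an angiogenic growth factor (-0.49, adjusted p = 0.0366).

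Among 14 tested relatives in droplet coating and assembly, KO livers had less Fitm1 and Hsd17b13 than WT livers, and the other 12 were not called in limma. Over all genes 4.2% were called lower and 4.63% higher. In edgeR 3 of the 14 were called, beside 7.94% of all genes, and in DESeq2 4, beside 15%. Fitm1, a membrane protein of the endoplasmic reticulum that helps partition triglyceride into droplets, had 314, 119 and 153 normalized counts in the KO libraries, 537, 794 and 854 in the KI libraries and 849, 874 and 981 in the WT libraries. Every KO library was below every other library. It fell by 2.33 on the log2 scale in KO against WT (SE 0.32, limma adjusted p = 0.00264) and rose by 1.99 in KI against KO (adjusted p = 0.00576). Hsd17b13, a droplet enzyme of hepatocytes, averaged 4831 ± 320 in KO, 5199 ± 568 in KI and 6734 ± 161 in WT, and it fell by 0.48 in KO against WT (limma adjusted p = 0.0241). Beside 3.6% higher and 4.85% lower over all genes in KI against KO, 3 of the 14 rose (Fitm1, Fitm2 and Ldah) and 1 fell. That 1 was Plin3, the perilipin found on newly forming droplets, with 1361 ± 105 normalized counts in KI and 2269 ± 342 in KO (log2 fold change -0.73, limma adjusted p = 0.0119). The median log2 fold change of the 14 was -0.12 in KO against WT, 0.01 in KI against WT and 0.14 in KI against KO.

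The genes of triglyceride hydrolysis beyond Pnpla2 held the largest fold changes of the 6 related lists in KO against WT. Of 9 such genes tested in KO against WT, 5 fell and 1 rose, beside 4.2% lower and 4.63% higher over all genes, with a median log2 fold change of -1.22 against 8e-04 over all genes. Ces1d, the carboxylesterase also called triacylglycerol hydrolase, had 5557, 388 and 306 normalized counts in the KO libraries, 15893, 28695 and 28161 in the KI libraries and 42380, 41757 and 38481 in the WT libraries. The groups did not overlap, and KO_1 was the KO library nearest to the others. Ces1d fell by 5.55 on the log2 scale in KO against WT (limma adjusted p = 0.0048), Ces1g by 3.65 (adjusted p = 0.00864) and Ces1f by 4.55 (adjusted p = 0.0164). These carboxylesterases are near copies of each other, so reads may be divided between them with error. Aadac, a microsomal lipase, averaged 10402 ± 4087 in KO, 18370 ± 1040 in KI and 23231 ± 1724 in WT and fell by 1.22 in KO against WT (limma adjusted p = 0.00969). The fifth was Lipc, the secreted hepatic lipase, which fell by 1.62 (adjusted p = 0.0247) and is named beyond the rule so that the count is complete.

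Lipa, the acid lipase that digests lipid in lysosomes, went the other way. It had 10085, 9711 and 9623 normalized counts in the KO libraries, 4281, 5532 and 4537 in the KI libraries and 6434, 6471 and 6367 in the WT libraries, with no overlap among the 3 groups. It rose by 0.61 on the log2 scale in KO against WT (SE 0.11, limma adjusted p = 0.0103) and fell by 1.04 in KI against KO (adjusted p = 0.000844). In KI against WT its difference of -0.43 did not pass (adjusted p = 0.192). Abhd5, the activator of the lipase, averaged 2155 ± 814 in KO, 3578 ± 1202 in KI and 1781 ± 111 in WT. It is given after its values were seen, because it partners the lipase, and its log2 fold change of 0.96 in KI against WT had a limma adjusted p of 0.213. All KI libraries were above all WT libraries for Abhd5, as they were for Hilpda.

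**Figure D4:**
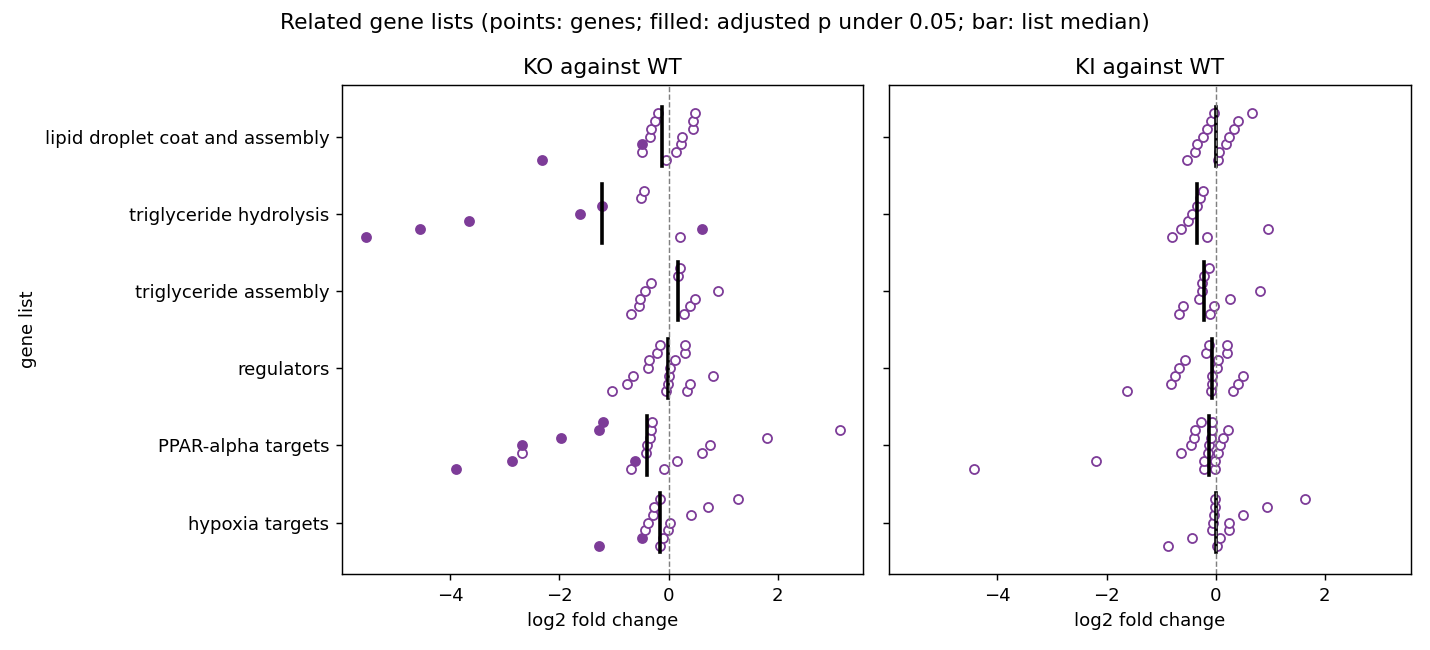
Log2 fold changes (horizontal axis) of the genes in 6 related lists (rows) for KO against WT and KI against WT, with filled points for an adjusted p under 0.05 and a bar at the median of each list. The hydrolysis genes lie furthest to the left in KO against WT, at a median of -1.22.

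Of 11 tested genes that build triglyceride, 4 were at an unadjusted p under 0.05 in KO against WT, beside 25% of all genes. In edgeR 0 were called, beside 7.94%, and in DESeq2 2, beside 15%. Genes that build triglyceride gave no limma call there, at a median log2 fold change of 0.17. Their 1 call of 11 in KI against KO, beside 8.45% of all genes, was Gpat3, an acyltransferase of the first step. Gpat3 fell by 1.07 (limma adjusted p = 0.0142). None of 17 regulators of these genes was called in KO against WT. Of the 17, 3 were at an unadjusted p under 0.05, beside 25% of all genes. In edgeR 0 were called and in DESeq2 1, beside the same 7.94% and 15%. In KI against KO 1 of the 17 regulators was called, beside the same 8.45% of all genes. It was Ppargc1a, a coactivator of the fasting response, with 356 ± 117 normalized counts in KI and 941 ± 364 in KO (log2 fold change -1.37, limma adjusted p = 0.0295). Of 20 targets of PPAR-alpha, the receptor that turns on fatty acid oxidation, 7 fell and 0 rose in KO against WT, beside 4.2% lower and 4.63% higher over all genes, with a median of -0.40 against 8e-04 over all genes. The 4 with the smallest adjusted p were Ehhadh (log2 fold change -1.96), Acot1 (-2.68), Acaa1b (-2.87) and Cyp4a10 (-3.90), at limma adjusted p of 0.00151, 0.00193, 0.00227 and 0.006. For 12 of the 20 all KO libraries lay below all WT libraries, and for 2 they lay above, beside 14.2% and 15% of all genes. The 2 were Angptl4 (log2 fold change 0.76, limma adjusted p = 0.0695) and Fgf21 (3.14, adjusted p = 0.114), named after their values were seen. Plin2, which is also known as a target of this receptor, was likewise not lower in any KO library than in any WT library. The part of the receptor in these values was not tested.

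The 6 lists were chosen with earlier results of these data known. Over their 85 genes tested, 16 fell and 1 rose in KO against WT, beside 4.2% lower and 4.63% higher over all genes. In KI against WT 0 were called, beside 0.0263% of all genes. In KI against KO 14 rose and 4 fell, beside 3.6% higher and 4.85% lower over all genes. For KI against WT, 18 of the 85 were at an unadjusted p under 0.05, beside 11.6% of all genes. In edgeR 0 of them were called, beside 0.00656% of all genes, and in DESeq2 9, beside 2.53%. The median log2 fold change of the 85 was -0.25 in KO against WT, -0.08 in KI against WT and 0.18 in KI against KO. Without the 3 libraries with pancreatic transcripts the calls in KO against WT were 1 lower and 0 higher, in a fit with 1 KI library, although the values moved little, and those in KI against KO were 0 in either direction. Over all genes that fit called 30 (0.197%) in KO against WT and 4 (0.0263%) in KI against KO, against 1346 and 1287 with all libraries. Fitm1 was then at -2.26 (adjusted p = 0.106), Ces1d at -5.59 (adjusted p = 0.135) and Lipa at 0.60 (adjusted p = 0.0992). The call that held was Cyp4a10 (adjusted p = 0.0105).

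A few markers of other cells were called higher in KO than in WT, and most were not, where 4.63% of all genes were called higher. The summed count of 6 neutrophil markers was 127, 882 and 1521 in the KO libraries, 33.3, 98.6 and 206 in the KI libraries and 127, 37.6 and 141 in the WT libraries, and KO_2 and KO_3 were again the high ones. Of 4 neutrophil markers tested, Mmp8 was called higher in KO than in WT (log2 fold change 4.38, limma adjusted p = 0.0418), and the other 3, at 2.33 to 2.49, were not called. Among 7 markers of Kupffer cells and macrophages, Marco was called higher (1.75, adjusted p = 0.0364) and the other 6, at -0.14 to 0.35, were not called, and the sum ran from 11150 to 28400 in KO, from 11990 to 20986 in KI and from 10545 to 20214 in WT. The sum of 8 stellate cell markers, for cells that hold retinyl ester droplets, ran from 13989 to 22492 in KO, from 11592 to 21249 in KI and from 13463 to 15348 in WT. Among 4 cholangiocyte markers tested, Sox9 was called higher (1.49, adjusted p = 0.0249) and the other 3 were not called. All 18 acute phase genes were called higher in KO than in WT. The part of these cells and of the acute phase in the values of Plin2, Plin4 and Cidec was not tested.

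For Plin2, Plin4 and Cidec, the genes with the most alike profiles were sought by the smallest root mean square difference over the 9 libraries, on the log2 scale centred on the WT mean, among 11453 genes. Plin2 was nearest to Xrcc4, a DNA repair factor (difference 0.18), Wdr90 (0.19) and Apoa5, a liver apolipoprotein that lowers plasma triglyceride (0.20). Apoa5 averaged 118551 normalized counts in KO, 64208 in KI and 71738 in WT. It was chosen for its likeness to Plin2, so its higher mean in KO follows from that choice. Cidec was nearest to Fosl2, a subunit of the AP-1 transcription factor (0.27), Map3k1, a kinase upstream of JNK (0.28), and Enc1 (0.29). Fosl2 had 176, 456 and 412 normalized counts in KO_1, KO_2 and KO_3, 143 to 177 in KI and 172 to 215 in WT. Fosl2 was chosen for its likeness to Cidec, so its high values in KO_2 and KO_3 and not in KO_1 follow from that choice. Plin4 had no close match, since Fam180a, Lynx1 and Jrk were at 0.48, 0.50 and 0.50.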

How the data were processed

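Total liver RNA was made into stranded mRNA libraries, per the labels. The submitters' processing notes name TopHat2, Bowtie2, featureCounts and the mouse build GRCm38, without versions. The annotation and the strand setting are not given in the sources used here. The authors deposited a normalized value (a signal, counts divided by a size factor of 0.8921 to 1.1051) per gene and library. Undoing that division gave whole reads for at least 99.995% of values in each library, with a tolerance of 0.0051 deposited units, and 5 values did not come out whole. Columns were matched to samples by the animal number in the labels.

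Deposited values were tested as log2(value + 1) in genes with a mean of at least 10, with limma 3.58.1 in R 4.3.3, a variance trend, 1 mean per group and all 9 libraries. Tests were two-sided, with Benjamini-Hochberg adjustment over 15238 genes. A fold change on this scale understates changes of low genes. As alternatives, edgeR 4.0.16 and DESeq2 1.42.0 were run on the recovered reads. The procedure was tested on simulated data. Tables and figures were made with Python 3.11, pandas 2.3.3 and matplotlib 3.10.9. Errors beside means are SDs and those beside log2 fold changes are SEs. Libraries of a group were checked for duplicates. The most alike, WT_1 and WT_2, gave a chi-square of 68.1 for each degree of freedom, so all were kept.

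The genes and lists were chosen with earlier results of these data known. Named genes are the members, Snd1, at most 4 called genes of each list and comparison with the smallest adjusted p, and the 3 genes most like a member that was called or ranged over at least 2 log2 units. Markers may also be named for a level at or near 0. Genes named outside this rule are marked as such.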

Additional observations from a re-analysis of the deposited data

How the results depend on the processing

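Each of 24 values (8 genes in 3 comparisons) was recomputed under 20 alternatives, and of the 480 values 435 kept their direction and side of the threshold, 10 lost a call, 7 gained one and 28 changed sign. No value that changed sign had an adjusted p under 0.639. The cause of these changes was not tested. Over all genes, DESeq2 called 15% in KO against WT, 2.53% in KI against WT and 15% in KI against KO. Without KO_1, 16.5% of all genes were called in KO against WT. In KI against KO the fit of only the 2 groups called 3.99% of all genes, and that with the covariate 0.899%. Genes called among the 8 numbered 1 in DESeq2 for KO against WT (0 to 2 when a library was left out, 2 without KO_1) and 1 in DESeq2 for KI against WT. For KI against KO they numbered 2 in DESeq2 and 0 with only the 2 groups compared, without the 3 libraries with pancreatic transcripts or with pancreatic transcripts as a covariate, and 0 to 2 when a library was left out (0 without KO_2, KO_3, KI_1, KI_3, WT_1 or WT_3).

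Genes of the lists called higher in KO than in WT numbered 2 with a minimum mean of 50, with TMM, in edgeR and with only the 2 groups, 10 in DESeq2, 0 without the 3 libraries with pancreatic transcripts and 1 to 5 when a library was left out (3 without KO_1, 5 without KO_3, 2 without KO_2, KI_1 or KI_3). Those called lower numbered 1 without the 3 libraries and 9 to 26 when a library was left out (26 without KO_1, 9 without KO_2 or WT_1, 10 without WT_2 or WT_3). For KI against WT, DESeq2 called 4 higher and 5 lower, the fit of only the 2 groups 1 lower, and leaving out a library 0 to 1 lower (1 without KO_1). For KI against KO the higher calls numbered 8 in edgeR, 6 with only the 2 groups, 0 without the 3 libraries, 2 with the covariate and 4 to 21 when a library was left out (4 without KO_2, 6 without KO_3, KI_1 or KI_3, 7 without WT_1, 8 without KI_2, 9 without WT_3), and the lower calls 8 in DESeq2, 0 without the 3 libraries, 1 with the covariate and 1 to 6 when a library was left out (1 without KO_2, 2 without KI_1 or KI_3).

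Log2 fold changes that turned sign were Cideb in KO against WT in edgeR (0.017) and DESeq2 (0.0074). In KI against WT without the 3 libraries they were Plin2 (0.19), Plin4 (-0.68) and Cideb (0.080), and with the covariate Plin5 (0.036) and Pnpla2 (0.031). In KI against KO they were Cideb without the 3 libraries (0.14) and with the covariate (0.039), G0s2 with total scaling (-0.0088) and without the 3 libraries (-0.16), and Pnpla2 with total scaling (-0.090). When a library was left out, KO against WT ran from -0.17 to 0.16 for Cideb, from -0.076 to 0.51 for G0s2 and from -0.21 to 0.066 for Pnpla2. KI against WT then ran from -0.14 to 1.07 for Plin4, from -0.30 to 0.15 for Plin5 and from -0.19 to 0.025 for Pnpla2, and KI against KO from -0.11 to 0.47 for G0s2 and from -0.13 to 0.14 for Pnpla2.

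Whether the replicate numbers pair the libraries was not settled. Correlations of same-numbered libraries ran from -0.14 to 0.57 and those of differently numbered libraries from -0.62 to 0.32. The highest was that of KI_3 with WT_3, which both carry pancreatic transcripts, followed by KI_2 with WT_2 at 0.53. With the number as a replicate block, 8 list genes were called higher and 17 lower in KO against WT, and Plin2 in KI against KO had an adjusted p of 0.0421. Counting error is largest for Plin4, Cidec and Hilpda, whose lowest libraries held 34, 65 and 60 reads. Of genes with 1 to 20 recovered reads, 58.1% (WT_1) to 63.1% (WT_3) per library had an even number. In KO_1, 784 genes had 2 recovered reads and 480 had 1. The cause of this excess was not tested, and recovered reads need not be independent of each other.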
